A study of Mus musculus with 6 samples.

Results

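The small leucine-rich proteoglycans are a family of secreted matrix proteins, and 10 of their genes (Dcn, Bgn, Lum, Fmod, Omd, Ogn, Prelp, Aspn, Kera and Podn) were followed here by gene symbol among the 18853 genes of a mouse RNA sequencing table. All 10 were listed, and 9 had enough counts to be tested; Kera did not. The cells were BMSCs, stromal cells of bone marrow that can form bone, fat and cartilage, kept in αMEM with 10% FBS. They carried the HRP2-KO genotype in 3 samples, numbered 6, 7 and 44, and the WT genotype in 3 samples, numbered 10, 11 and 12. HRP2, also written HDGFR2, is a chromatin reader related to hepatoma-derived growth factor, and its gene is listed as Hdgfl2. By its title, the study asked how HRP2 bears on bone formation by these cells through histone acylation. Strain, age, passage, knockout design and the animals behind each sample were not stated in the labels, so the p-values reflect sample-to-sample spread that may be technical.

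Each member is built on leucine-rich repeats that fold into a curved core protein, and most carry glycosaminoglycan chains. Class I holds decorin (Dcn), biglycan (Bgn) and asporin (Aspn), of which the first pair carry chondroitin or dermatan sulphate. Class II holds lumican (Lum), fibromodulin (Fmod), prolargin (Prelp), osteomodulin (Omd) and keratocan (Kera), several of which carry keratan sulphate, and osteoglycin (Ogn) and podocan (Podn) stand in further classes. The cores bind collagen, set the spacing and width of its fibrils, and hold growth factors such as TGF-beta in the matrix. Biglycan and osteomodulin are abundant in bone, and fibromodulin, decorin and lumican in tendon and loose connective tissue.

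The libraries held 20184499 to 20680773 estimated counts. Hdgfl2 was lower in every HRP2-KO library, at 6.59, 5.56 and 11.8 CPM in replicates 6, 7 and 44, against 51.4, 56.2 and 58.2 CPM in WT replicates 10, 11 and 12 (CPM is the estimated count relative to library size, scaled with TMM factors). In edgeR's quasi-likelihood test over all libraries its log2 fold change was -2.79 (SE 0.32, adjusted p = 0.0711). Hdgfl2 itself therefore did not pass the threshold applied to the members below. HRP2-KO replicate 7 stood apart: its log2 CPM correlated across genes at 0.884 and 0.861 with HRP2-KO replicates 6 and 44, and at 0.912 to 0.934 with the WT libraries, so fits are given with and without it. All 10 markers of marrow stroma were detected in every library. Their summed level was 28763, 23550.3 and 22190.2 CPM in HRP2-KO replicates 6, 7 and 44. In WT replicates 10, 11 and 12 it was 5354, 10417 and 8125 CPM. Most of the HRP2-KO sums came from the collagens Col1a1 and Col1a2. Without these collagens the sum was 1216, 2988 and 1282 CPM in HRP2-KO replicates 6, 7 and 44. It was then 2141, 2728 and 3476 CPM in WT replicates 10, 11 and 12. Lepr, a defining marker of marrow stroma in tissue, was at most 4.49 CPM in any library. All 15 macrophage markers were also detected in every library, and none was at 0. They summed to 1358, 15183 and 2782 CPM in HRP2-KO replicates 6, 7 and 44, and to 26659, 11404 and 10552 CPM in WT replicates 10, 11 and 12. The 7 osteoblast markers summed to 2102, 10569.8 and 3889 CPM in HRP2-KO replicates 6, 7 and 44, and to 3399.6 to 4688 CPM in WT, and most of each sum was Spp1, which macrophages also express. Spp1 alone was 10431 CPM in HRP2-KO replicate 7, while Runx2 (54.5 CPM), Sp7 (2.89 CPM), Bglap2 (0.160 CPM) and Bglap (0) were at their lowest among the HRP2-KO libraries there. Alpl and Ibsp, the remaining markers of this list, were instead lowest in HRP2-KO replicate 44. Endothelial, granulocyte, lymphocyte and erythroid markers summed to at most 7.37 CPM each in HRP2-KO and at most 20.6 CPM in WT. In bulk RNA, fewer cells of a type and less RNA per cell cannot be told apart.

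Most members sit in gene clusters on GRCm38.p6. Prelp (Entrez 116847, 133910304 to 133930102, minus strand) and Fmod (Entrez 14264, 134037254 to 134048280, plus strand) lie within 138 kb on chromosome 1. Dcn (Entrez 13179, 97479500 to 97518163), Lum (Entrez 17022, 97565501 to 97572703) and Kera (Entrez 16545, 97606962 to 97613688) lie within 134 kb on the plus strand of chromosome 10. Aspn (Entrez 66695, 49544443 to 49567565), Omd (Entrez 27047, 49582462 to 49592612) and Ogn (Entrez 18295, 49608015 to 49624501) lie within 80.1 kb on the plus strand of chromosome 13. Bgn (Entrez 12111, 73483601 to 73495936, plus strand) is on chromosome X and Podn (Entrez 242608, 108014793 to 108031954, minus strand) on chromosome 4.

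RefSeq promoter windows of 300 bases, from 250 before to 50 after the start site, matched 8 members; Dcn and Lum are named only. The windows of Bgn and Podn are shown as the members with the narrowest spread among HRP2-KO libraries, those of Fmod and Prelp as the neighbours that were far apart between HRP2-KO libraries, and that of Omd as a member that was low where those were high. They are written 5′ to 3′ on the gene's strand, and capitals mark motif matches on either strand. The motifs searched were the TATA box with the letters TATAAA, the GC box with the letters GGGCGG, the CCAAT box under its own letters, the AP-1 site with the letters TGANTCA, and the RUNX core with the letters TGTGGT.
Bgn, chrX:73483351-73483650, plus strand: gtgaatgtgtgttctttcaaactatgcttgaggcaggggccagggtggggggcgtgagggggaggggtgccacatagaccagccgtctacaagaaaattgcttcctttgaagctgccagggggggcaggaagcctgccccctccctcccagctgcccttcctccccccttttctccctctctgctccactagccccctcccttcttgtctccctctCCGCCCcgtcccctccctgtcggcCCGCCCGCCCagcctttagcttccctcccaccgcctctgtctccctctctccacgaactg
Podn, chr4:108031905-108032204, minus strand: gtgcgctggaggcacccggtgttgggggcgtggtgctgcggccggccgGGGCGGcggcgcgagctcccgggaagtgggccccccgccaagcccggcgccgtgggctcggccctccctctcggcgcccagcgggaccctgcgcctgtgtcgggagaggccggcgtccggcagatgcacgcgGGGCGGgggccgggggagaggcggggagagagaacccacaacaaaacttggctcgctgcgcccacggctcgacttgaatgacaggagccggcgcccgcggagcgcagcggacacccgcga
Fmod, chr1:134037004-134037303, plus strand: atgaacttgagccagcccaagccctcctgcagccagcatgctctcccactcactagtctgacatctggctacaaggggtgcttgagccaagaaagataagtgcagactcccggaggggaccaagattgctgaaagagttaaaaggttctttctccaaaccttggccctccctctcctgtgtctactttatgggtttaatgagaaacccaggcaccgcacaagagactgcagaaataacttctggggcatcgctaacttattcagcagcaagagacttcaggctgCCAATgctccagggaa
Prelp, chr1:133921352-133921651, minus strand: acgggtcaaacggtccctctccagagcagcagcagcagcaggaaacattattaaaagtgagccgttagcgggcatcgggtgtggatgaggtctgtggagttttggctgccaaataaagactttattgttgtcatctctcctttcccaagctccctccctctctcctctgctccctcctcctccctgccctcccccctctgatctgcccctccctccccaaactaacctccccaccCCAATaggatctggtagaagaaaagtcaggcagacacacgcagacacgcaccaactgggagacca
Omd, chr13:49582212-49582511, plus strand: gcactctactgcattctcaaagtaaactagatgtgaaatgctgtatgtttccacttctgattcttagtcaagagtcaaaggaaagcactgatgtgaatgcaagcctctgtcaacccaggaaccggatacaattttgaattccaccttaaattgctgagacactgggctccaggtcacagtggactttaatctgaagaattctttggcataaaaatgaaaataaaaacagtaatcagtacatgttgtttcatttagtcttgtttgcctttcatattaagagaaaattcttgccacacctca
GC content was 63.7% in the Bgn window, 77.0% in the Podn window shown, 51.0% in that of Fmod, 55.3% in that of Prelp and 37.7% in that of Omd, against a median of 52.7% over 32851 windows. The Bgn window held 3 GC box matches, the last pair of which overlap, and the Podn window shown held 2. A second Podn window, whose start site lies 0.97 kb inside the gene, had 63.0% GC and no match. The Fmod and Prelp windows each held a CCAAT match, at 35 after and 15 before the start site. The Prelp window belongs to a start site 8.70 kb inside the gene span given above, and the windows shown for the other 4 genes to the start of theirs. The Omd window matched none of the 5 motifs. Over all windows GC boxes were found in 35.7%, CCAAT in 37.4%, TATAAA in 13.6%, the RUNX core in 16.8% and the AP-1 site in 7.81%. The matches are descriptions of these letters and were not tied to any measurement of binding.

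Per length, the family's RNA was mostly biglycan. Bgn stood at 6257, 5586 and 4877 TPM in HRP2-KO replicates 6, 7 and 44, and at 2629, 6918 and 6606 TPM in WT replicates 10, 11 and 12 (TPM is the authors' abundance scaled to transcript length and library). It ranked between place 6 and place 27 of all 18853 genes. Bgn made up 92.9%, 46.4% and 97.2% of the members' summed TPM in HRP2-KO replicates 6, 7 and 44, and 73.6%, 52.5% and 76.1% in WT replicates 10, 11 and 12. The 9 other members together summed to 481, 6461 and 139.8 TPM in HRP2-KO and to 941, 6256 and 2072 TPM in WT. HRP2-KO replicates 6 and 44 therefore lay below every WT library in this sum, while replicate 7 lay above all of them. The order after Bgn also varied: Prelp came second in all 3 WT libraries, Ogn in HRP2-KO replicates 6 and 44, and Fmod in HRP2-KO replicate 7. Lum and Kera held the last places in all 3 WT libraries and in HRP2-KO replicates 6 and 44. In HRP2-KO replicate 7 Lum, at 36.1 TPM, stood above Aspn, Podn and Omd. Neighbouring places with the groups' spread were not separable: Fmod averaged 1222 ± 2046 TPM and Prelp 702 ± 1144 TPM in HRP2-KO, and 919 ± 1140 and 1378 ± 1044 TPM in WT (SD, n = 3 each).

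**Figure D1:**
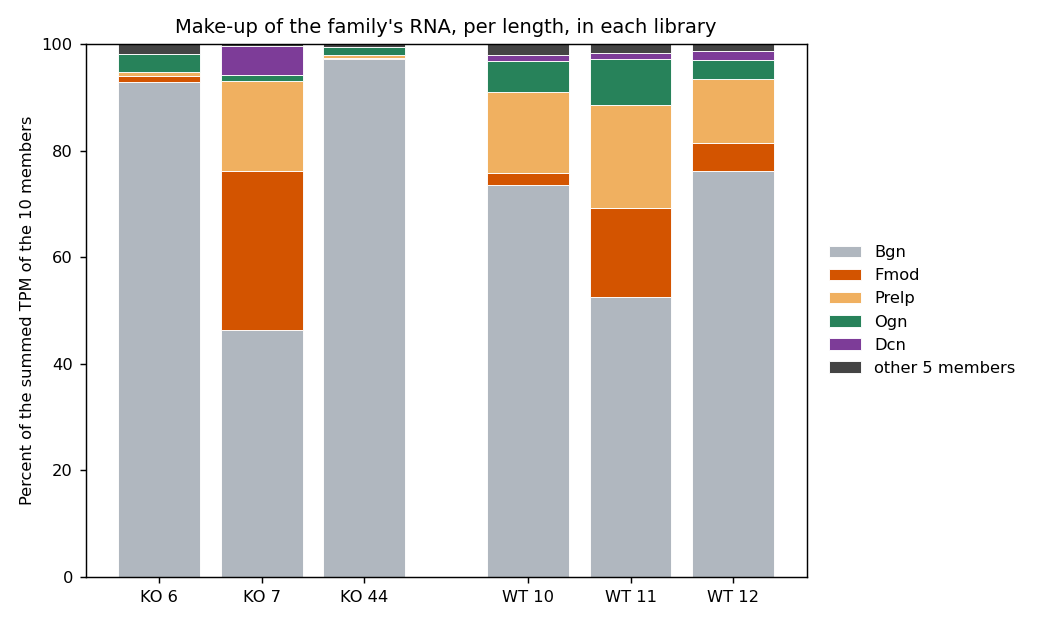
Percent of the summed TPM of the 10 members taken by each member (vertical axis) in the 3 HRP2-KO libraries (left) and the 3 WT libraries (right), with Omd, Aspn, Podn, Lum and Kera drawn together. Bgn takes over 90% in HRP2-KO replicates 6 and 44, and the Fmod and Prelp segments are widest in HRP2-KO replicate 7 and WT replicate 11.

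None of the 9 tested members passed the threshold of an adjusted p of 0.05 in edgeR's quasi-likelihood test of 3 HRP2-KO against 3 WT libraries, where 0.00730% of the 13696 tested genes did so. At an unadjusted p under 0.05 there were 2 members, Ogn and Podn, both lower in HRP2-KO, beside 9.10% of tested genes lower and 12.7% higher at that level. DESeq2 also called 0 members, where it called 10.1% of genes, and gave no p for Dcn and Lum. The count was likewise 0 without a filter (0.00541% of genes called), with a floor of 1 CPM in 3 samples (0.00774%), with limma voom (0.270%), and with limma on log2(TPM + 1) (0.332%) or log2(TPM + 0.1) (0.213%). It was 0 without HRP2-KO replicate 6 or WT replicate 12 (0.00716% each), WT replicate 10 (0.00718%) or WT replicate 11 (0.00719%), and without HRP2-KO replicate 44, where no gene was called. The median log2 fold change of the 9 was -0.73, with 4 above and 5 below 0, against a median of 0.02 over all tested genes. Without HRP2-KO replicate 7 the edgeR fit called 3 members, Dcn, Lum and Prelp, all lower in HRP2-KO, where 24.1% of 13983 tested genes were called and 12% were called lower. The median of the 9 was then -1.61, against -0.00 over all tested genes, and 8 of the 9 lay below 0.

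**Figure D2:**
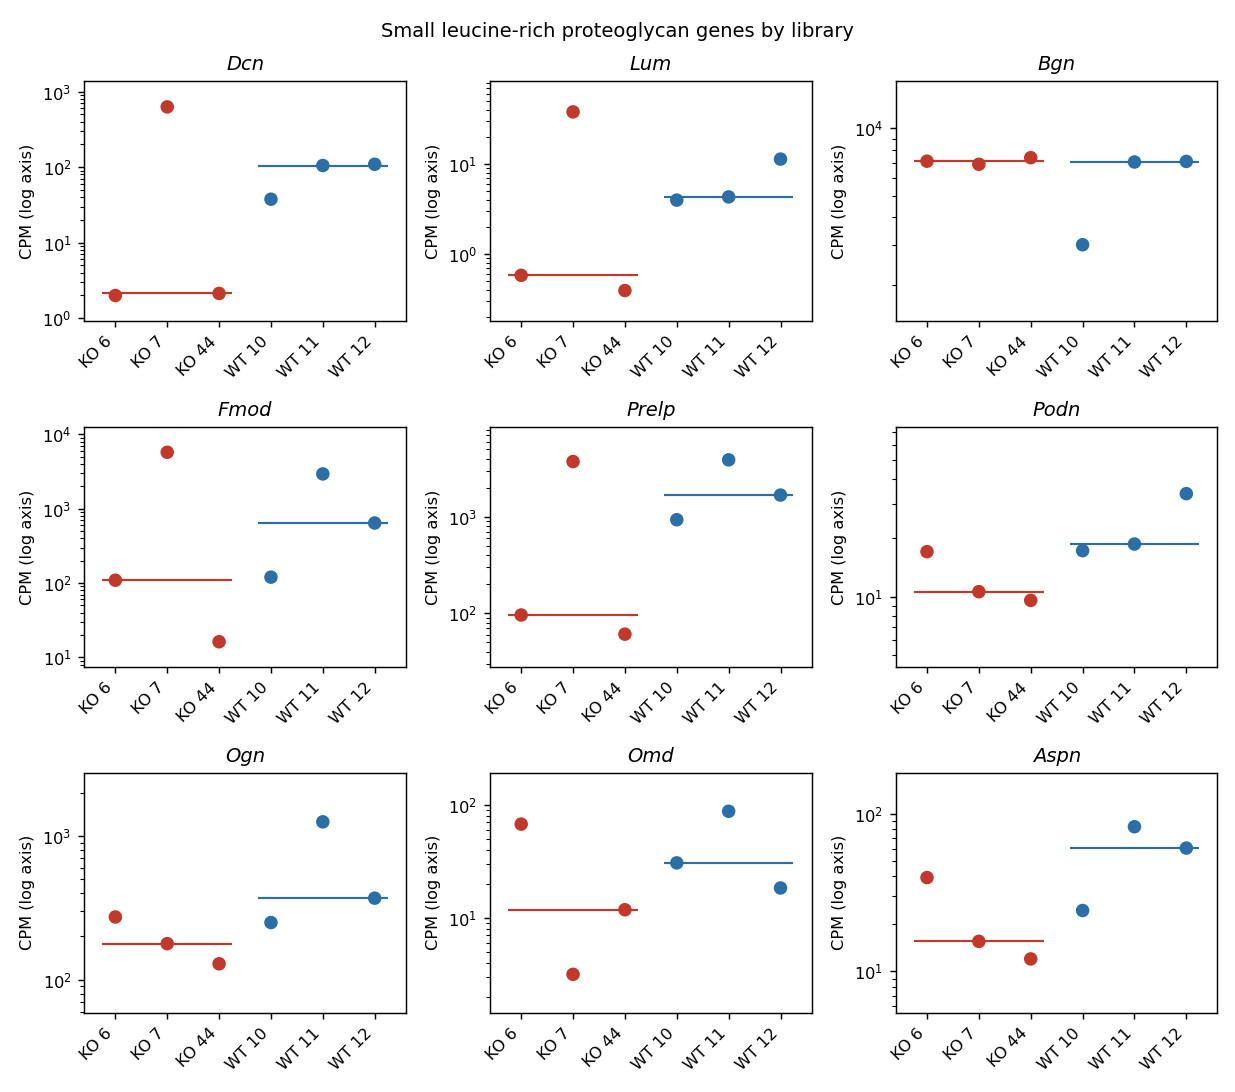
CPM of the 9 tested members (vertical log axis, scaled per panel) in the 3 HRP2-KO libraries (red, left) and the 3 WT libraries (blue, right), with a line at each group's median. Dcn, Lum, Fmod and Prelp are far higher in HRP2-KO replicate 7 than in replicates 6 and 44, while Bgn is nearly level in all 3.

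Decorin and lumican, the fibril-binding pair on chromosome 10, were below every WT library in 2 HRP2-KO libraries and above every one in the third. Dcn was at 2.0, 626 and 2.13 CPM in HRP2-KO libraries 6, 7 and 44, against 37.6, 105 and 109 CPM in WT libraries 10, 11 and 12. Replicates 6 and 44 rested on 41 and 43 counts, and replicate 7 on 11710. Dcn in HRP2-KO replicate 7 was 313-fold above replicate 6 and 294-fold above replicate 44. The fitted log2 fold change of Dcn was 1.32 with a standard error of 1.94 in edgeR (adjusted p = 0.693), and -5.30 with a standard error of 0.61 without replicate 7 (adjusted p = 0.0148). Limma voom on all 6 libraries gave -2.52, so the sign for Dcn also changed with the test.

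Lum was at 0.585, 38.1 and 0.397 CPM in HRP2-KO libraries 6, 7 and 44, against 4.0, 4.34 and 11.4 CPM in WT libraries 10, 11 and 12. The HRP2-KO libraries 6 and 44 lay below every WT library, with 12 and 8 counts, and replicate 7 lay above every one. Its log2 fold change was 0.98 with a standard error of 1.59 in edgeR (adjusted p = 0.724), and -3.70 with a standard error of 0.69 without replicate 7 (adjusted p = 0.0219). Limma voom gave -1.52 for Lum. Per length, Dcn exceeded Lum by 3.78, 18.3 and 5.87 times in HRP2-KO replicates 6, 7 and 44, and by 10.4, 27.0 and 10.7 times in WT replicates 10, 11 and 12. Kera, the cornea keratan sulphate proteoglycan next to Lum, had no count in any HRP2-KO library and 0, 3 and 2 counts in WT replicates 10, 11 and 12. A count of 0 allows up to 0.146 to 0.160 CPM in HRP2-KO libraries (3 counts, counting error only), so no difference was detectable at this depth.

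Fibromodulin and prolargin, which both bind collagen, differed between libraries by 355-fold and 64.3-fold from lowest to highest CPM, against 313-fold for Dcn and 2.45-fold for Bgn. Fmod was at 109, 5742 and 16.2 CPM in HRP2-KO libraries 6, 7 and 44, against 119.8, 2936 and 641 CPM in WT libraries 10, 11 and 12. The lowest and highest of the 6 values were both HRP2-KO libraries, and WT alone spanned 24.5-fold. In HRP2-KO, Fmod averaged 1956 ± 3280 CPM and in WT 1232 ± 1498 CPM (SD, n = 3 each). Its log2 fold change was 0.67 with a standard error of 1.97 in edgeR (adjusted p = 0.851), and -4.28 with a standard error of 1.58 without HRP2-KO replicate 7 (adjusted p = 0.0933). Limma voom gave -1.45 for Fmod.

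Prelp was at 95.8, 3745 and 60.6 CPM in HRP2-KO libraries 6, 7 and 44, against 933, 3901 and 1681 CPM in WT libraries 10, 11 and 12. Replicates 6 and 44 of HRP2-KO were below every WT library, and replicate 7 lay within the WT range. The log2 fold change of Prelp was -0.74 with a standard error of 1.52 in edgeR (adjusted p = 0.784), and -4.76 with a standard error of 0.77 without HRP2-KO replicate 7 (adjusted p = 0.0179). It was -0.01 without WT replicate 11, and limma voom on all libraries gave -2.68 for Prelp. Per length, Fmod over Prelp was 1.32, 1.77 and 0.308 in HRP2-KO replicates 6, 7 and 44, and 0.148, 0.870 and 0.441 in WT replicates 10, 11 and 12. Both genes were highest in HRP2-KO replicate 7 and WT replicate 11 of their groups, and their ratio was not fixed. Dcn, Lum, Fmod and Prelp were each highest among HRP2-KO libraries in replicate 7, where the macrophage markers summed to 15183 CPM against 1358 and 2782 CPM in replicates 6 and 44. In WT, by contrast, replicate 10 had the highest macrophage sum, 26659 CPM, and the lowest value of each of these genes. The sum was 11404 and 10552 CPM in WT replicates 11 and 12. Of these libraries, Fmod and Prelp were higher in replicate 11, and Dcn and Lum in replicate 12. The part of the macrophage share in these values was not tested.

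**Figure D3:**
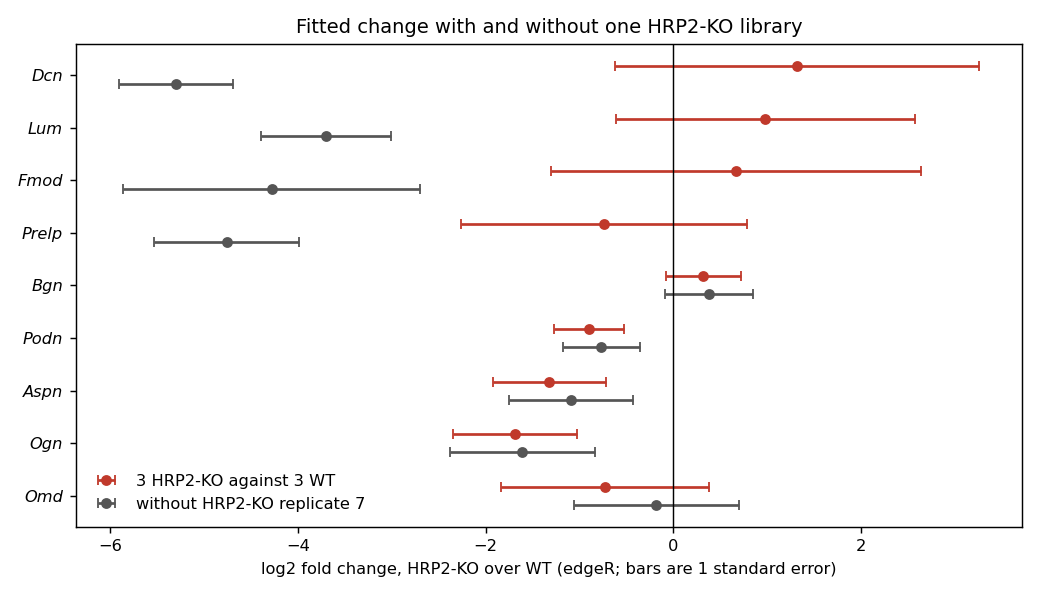
Log2 fold change of HRP2-KO over WT with 1 standard error (horizontal axis) for the 9 tested members, from edgeR with all libraries (red) and without HRP2-KO replicate 7 (grey). The grey points of Dcn, Lum, Fmod and Prelp lie between -3.70 and -5.30 while that of Bgn is at 0.38, beside 0.32 with all libraries.

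Biglycan, which marks bone matrix, had the most even level in HRP2-KO. Bgn was at 7135, 6913 and 7399 CPM in HRP2-KO libraries 6, 7 and 44, against 3021, 7078 and 7119 CPM in WT libraries 10, 11 and 12. All 3 HRP2-KO libraries were close to WT replicates 11 and 12, and WT replicate 10 was the low one. That WT library also had the highest macrophage sum, 26659 CPM, and the part of this in the Bgn level was not tested. The log2 fold change was 0.32 with a standard error of 0.40 in edgeR (adjusted p = 0.642), and 0.01 without WT replicate 10. Bgn had the highest mean TPM of the members. Of 8698 other tested genes with a mean of at least 10 TPM, those most like Bgn over the 6 libraries were Rftn2, Nfix, Prrx2, Cx3cl1 and Fkbp7. Their centred log2(TPM + 1) values differed from those of Bgn by a root mean square of 0.082 to 0.142. Of the members compared, the nearest, Podn, differed by 0.707 and stood at place 6402, and Dcn, the farthest, differed by 2.873. Lum and Kera fell below the floor of 10 TPM and were not compared.

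Osteoglycin, osteomodulin and asporin, the chromosome 13 members, did not follow the pattern of Dcn and Fmod among the HRP2-KO libraries. Among the WT libraries Ogn and Aspn were, like Fmod, lowest in replicate 10 and highest in replicate 11, while Omd was lowest in replicate 12. Ogn was at 273, 178 and 129 CPM in HRP2-KO libraries 6, 7 and 44, against 249.6, 1253 and 369 CPM in WT libraries 10, 11 and 12. The groups overlapped through HRP2-KO replicate 6 and WT replicate 10. Ogn averaged 193 ± 73.6 CPM in HRP2-KO and 624 ± 548 CPM in WT (SD, n = 3 each), and edgeR fitted a log2 fold change of -1.69 (SE 0.66, adjusted p = 0.212). Without WT replicate 11 the log2 fold change of Ogn was -0.68.

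Aspn, an aspartate-rich core protein that binds TGF-beta, was at 39.3, 15.5 and 12 CPM in HRP2-KO libraries 6, 7 and 44, against 24.3, 82.5 and 60.4 CPM in WT libraries 10, 11 and 12. As for Ogn, the overlap came from HRP2-KO replicate 6 and WT replicate 10. Its log2 fold change was -1.32 with a standard error of 0.60 (edgeR adjusted p = 0.256). Omd, which binds bone mineral, ran the other way within HRP2-KO, at 67.7, 3.16 and 11.8 CPM in replicates 6, 7 and 44, against 30.7, 88.0 and 18.4 CPM in WT replicates 10, 11 and 12. Its lowest value was in HRP2-KO replicate 7, which had the highest Dcn, Lum and Fmod. The log2 fold change of Omd was -0.73 with a standard error of 1.11 in edgeR (adjusted p = 0.702), and it turned to 0.17 without WT replicate 11.

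All 3 of these genes lie inside the span of Cenpp, a centromere protein gene on the opposite strand (GENCODE M21), and whether counting used strand was not stated. Cenpp stood at 5.95, 3.0 and 8.53 CPM in the HRP2-KO libraries in the order above, and at 0.641, 1.11 and 0.848 CPM in WT replicates 10, 11 and 12. Cenpp was below all 3 genes in every WT and every HRP2-KO library, though by little in some. It was close to Omd in HRP2-KO replicate 7 (3.16 CPM), and in replicate 44 it was not far below Aspn (12 CPM) and Omd (11.8 CPM). Only gene spans were compared, and whether exons of Cenpp and of these genes overlap was not checked. Without strand, reads from any shared exon sequence could not be told apart. On the same annotation Prelp overlaps the antisense gene Gm15851, which is not among the genes analysed here. The GENCODE span of Podn overlaps Scp2 on its own strand. Scp2 starts at 108043839 there, outside the RefSeq span of Podn given above, which ends at 108031954.

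Podn, a collagen-binding core protein, was the member whose groups did not overlap, with 14.0% of tested genes lower in this way. It was at 17, 10.6 and 9.57 CPM in HRP2-KO libraries 6, 7 and 44, against 17.2, 18.6 and 33.7 CPM in WT libraries 10, 11 and 12. The gap rested on HRP2-KO replicate 6 and WT replicate 10, which had 348 and 349 counts. EdgeR put its log2 fold change at -0.90 (SE 0.37, adjusted p = 0.223), which ranged from -1.19 to -0.53 as each library was left out.

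Most members varied more between libraries of the same genotype than a typical gene. The SD of log2(CPM + 1) over the HRP2-KO libraries was 4.43 for Dcn, 4.28 for Fmod, 3.25 for Prelp and 2.72 for Lum, against a median of 0.38 over 13696 tested genes. From the largest down, these took places 5, 8, 29 and 58. Over the WT libraries Fmod had an SD of 2.3, at place 13, and Ogn 1.21, at place 184, against a median of 0.20. Bgn had an SD of 0.05 in HRP2-KO, at place 13478, and 0.71 in WT, at place 1141. Podn had 0.41 in HRP2-KO and 0.51 in WT.

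**Figure D4:**
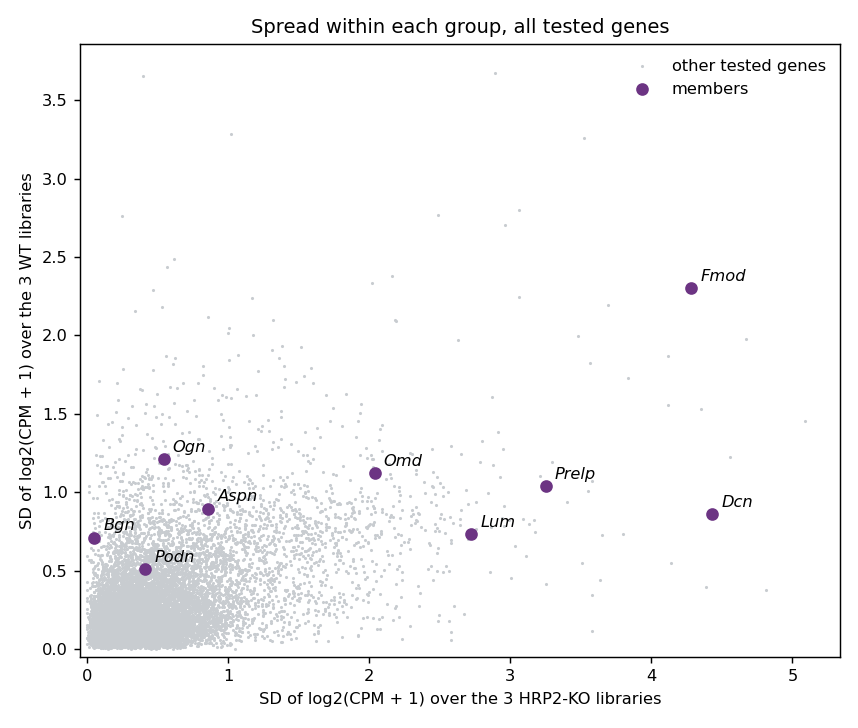
SD of log2(CPM + 1) over the 3 HRP2-KO libraries (horizontal axis) and over the 3 WT libraries (vertical axis) for each tested gene (grey) and the 9 tested members (purple). Fmod has a large SD in both groups, Dcn, Prelp and Lum mainly in HRP2-KO, and Bgn an SD of 0.05 in HRP2-KO and 0.71 in WT.

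Relative to the main fibril collagen, members were mostly scarcer in HRP2-KO. Per length, Bgn over Col1a1 was 1.12, 1.43 and 1.51 in HRP2-KO replicates 6, 7 and 44, and 4.72, 5.33 and 9.51 in WT replicates 10, 11 and 12. Ogn over Col1a1 was 0.0401, 0.0344 and 0.0245 in HRP2-KO, and 0.364, 0.880 and 0.459 in WT. The ratio was lower in every HRP2-KO than in every WT library for 6 of the 9 members (Bgn, Omd, Ogn, Prelp, Aspn and Podn), and the groups overlapped for Dcn, Lum and Fmod. Col1a1 itself stood at 5571, 3894 and 3234 TPM in HRP2-KO, and at 557, 1298 and 695 TPM in WT. Of all tested genes with a TPM above 0 in each library, 92.2% had a lower ratio to Col1a1 in this way, so the members' count is no result about them.

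Genes that build, bind or cut these proteins were read from lists chosen by function. None of their tested members passed in edgeR over all 6 libraries. Of 11 partner collagens, 7 were higher in every HRP2-KO than in every WT library, where 17% of tested genes were. DESeq2 called 5 of the 11 higher, where it called 5.45% of genes, and edgeR without HRP2-KO replicate 7 called 4 higher and 1 lower, where 12.1% and 12% of genes were called. Col5a1, a chain of the collagen that starts fibrils, averaged 2215 ± 936 CPM in HRP2-KO and 645 ± 128 CPM in WT (SD, n = 3 each; edgeR adjusted p = 0.108). Among 8 tested proteases Bmp1, which trims procollagen and the biglycan propeptide, averaged 413 ± 87.8 CPM in HRP2-KO and 223 ± 75.8 CPM in WT (adjusted p = 0.187), and its relative Tll1 11.1 ± 5.87 and 23.7 ± 3.88 CPM (adjusted p = 0.200). Mmp14, a membrane collagenase, averaged 575 ± 184 CPM in HRP2-KO and 309 ± 92.3 CPM in WT (adjusted p = 0.208).

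The 6 linker enzymes had a median log2 fold change of -0.20 and the 16 chondroitin and dermatan sulphate enzymes one of -0.08, and neither edgeR, DESeq2 nor edgeR without HRP2-KO replicate 7 called any of these genes. Chsy1, a chondroitin synthase, averaged 61.7 ± 13.2 CPM in HRP2-KO and 45.2 ± 3.22 CPM in WT (SD, n = 3 each; edgeR adjusted p = 0.258). Of 5 tested keratan sulphate enzymes, the sulphotransferase Chst1 was at 15.7, 14.0 and 13.1 CPM in HRP2-KO libraries 6, 7 and 44, against 4.29, 8.82 and 6.36 CPM in WT libraries 10, 11 and 12. Its groups did not overlap (edgeR adjusted p = 0.138, and 0.0550 without HRP2-KO replicate 7). B3gnt2, which extends the keratan sulphate backbone, did not overlap in the other direction, at 26.0, 32.8 and 22.3 CPM in the HRP2-KO libraries, against 51.9, 34.9 and 34.3 CPM in the WT libraries (edgeR adjusted p = 0.241). That is 1 of the 5 in each direction, where 17% of tested genes were higher and 14.0% lower in this way. The 1 enzyme of the list called without HRP2-KO replicate 7 was the sulphotransferase Chst2, at 33.8, 15.2 and 31.5 CPM in HRP2-KO and 14.5, 20.3 and 16.6 CPM in WT (edgeR adjusted p = 0.300 with all libraries and 0.0293 without that one). Without that library 12.1% of tested genes were called higher.

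Without HRP2-KO replicate 7, edgeR called 1 of 13 tested ligands and receptors higher and 4 lower, where 12.1% and 12% of genes were called. Tlr4, an innate receptor for soluble biglycan and decorin, was at 17.8, 52.6 and 14.7 CPM in HRP2-KO libraries 6, 7 and 44, against 85.3, 66.6 and 67.0 CPM in WT libraries 10, 11 and 12. For Tlr4 edgeR gave an adjusted p of 0.200 over the 6 libraries, and of 0.0148 once HRP2-KO replicate 7 was left out. The list's higher gene was Ccn4, a matricellular WNT target, at 159, 43.3 and 98.5 CPM in HRP2-KO libraries and 35.4, 46.9 and 46.9 CPM in WT libraries (edgeR adjusted p = 0.202, and 0.0179 without HRP2-KO replicate 7). Of 6 other tested family genes, Podnl1, a podocan relative, was at 23.6, 2.57 and 41.4 CPM in HRP2-KO libraries 6, 7 and 44, against 6.76, 2.49 and 1.27 CPM in WT libraries 10, 11 and 12 (edgeR adjusted p = 0.214, and 0.0262 without HRP2-KO replicate 7). Nyx and Ecm2 were at most 4.24 CPM in any library. Among 16 other proteoglycans, the glypican Gpc6 averaged 61.5 ± 28.6 CPM in HRP2-KO and 166 ± 49.4 CPM in WT, and the syndecan Sdc1 251 ± 9.55 and 164 ± 19.4 CPM (SD, n = 3 each; edgeR adjusted p = 0.141 and 0.144, and 0.0217 and 0.0465 without HRP2-KO replicate 7). Without that library edgeR called 3 of 17 such genes higher and 3 lower.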

How the data were processed

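RNA was measured in 6 BMSC samples, 3 HRP2-KO and 3 WT, grouped and numbered by their titles. The submitters' processing notes name BWA and GRCm38.p6; the sources used here do not name the gene counter or its use of strand. The authors deposited estimated counts per gene, rounded here before fitting. Per the file headers, the authors also deposited TPM, used for levels and shares, and FPKM, used as an alternative for shares. A further 30 columns were not used.

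Members and gene lists were chosen with earlier results of these data known. Genes were filtered with filterByExpr (minimum count 10, minimum total 15), scaled with TMM (factors 0.906 to 1.066) and tested with edgeR 4.0.16 (R 4.3.3), glmQLFit and glmQLFTest with genotype as the one term (two-sided). Adjustment was by Benjamini-Hochberg over 13696 genes and a threshold of 0.05. Standard errors are the log2 fold change over the square root of F. Libraries of a group differed by more than counting noise (chi-square per degree of freedom from 49.9). Genes named are the members, Hdgfl2 and the 5 most like Bgn. Others are from the 3 with the smallest p in each of the other functional lists. Lepr, Col1a2, Spp1, Runx2, Sp7, Alpl, Ibsp, Bglap and Bglap2 are named from the marker lists. Cenpp, Gm15851 and Scp2 are named as overlapping genes. The marker and overlapping genes were all chosen after values were seen. Of 160 list entries 157 were in the table. Positions and promoters come from RefSeq (GRCm38.p6).

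On simulated counts over 13503 genes the edgeR step recovered 6%, 42%, 72% and 90% of genes changed 2-, 4-, 8- and 16-fold, with 8 false calls. The changed genes were drawn at random, and counts were drawn independently with no library set apart. These rates are therefore not those of the members, several of which were among the most variable genes. Alternatives were RLE factors, no filter, 1 CPM in 3 samples, DESeq2 1.42.0, limma 3.58.1 (voom, and on log2(TPM + 1) or log2(TPM + 0.1)), each library left out, and FPKM for shares. Figures used matplotlib 3.10.9.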

Additional observations from a re-analysis of the deposited data

How the results depend on the processing

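The count of members past the threshold was 0 with RLE factors, without a filter, with 1 CPM in 3 samples, with DESeq2, with limma voom and with both TPM fits, and ranged from 0 to 3 as each library was left out, the 3 being Dcn, Lum and Prelp without HRP2-KO replicate 7. The count over all genes was 1553 with DESeq2, 37 with limma voom, 42 on log2(TPM + 1) and 27 on log2(TPM + 0.1), against 1 in edgeR, and ranged from 0 without HRP2-KO replicate 44 to 3370 without HRP2-KO replicate 7. The log2 fold change turned negative with limma voom, on log2(TPM + 1) and on log2(TPM + 0.1) for Dcn (-2.52, -2.34 and -2.66), Lum (-1.52, -0.80 and -1.56) and Fmod (-1.45, -1.69 and -1.74). As each library was left out it ranged from -5.30 to 1.86 for Dcn, from -3.70 to 1.64 for Lum, from -4.28 to 2.36 for Fmod, from -2.57 to 0.17 for Omd, from -4.76 to -0.01 for Prelp, from -2.07 to -0.68 for Ogn, from -2.01 to -0.93 for Aspn, from -1.19 to -0.53 for Podn and from 0.01 to 0.50 for Bgn. The cause was not tested. Of 117 values of members' fold changes under these settings, 101 kept their sign and their side of the threshold, and 2 more, Dcn and Lum in DESeq2, kept their sign and had no p. The mean share of Bgn was 78.8% in HRP2-KO and 67.4% in WT by TPM and by FPKM alike. No paired analysis was possible because the groups share no replicate number. Depth limits Kera, and Dcn and Lum in HRP2-KO replicates 6 and 44.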
